A study of Mus musculus with 6 samples.

Results

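The genes described here were already well expressed in reporter-negative mouse embryonic stem (ES) cells and were higher in reporter-positive cells in each of 3 replicate pairs of arrays. They were chosen by measured values. A gene qualified if its mean log2 level over the 3 negative arrays was at least 9 and if positive minus negative was 0.3 or more on the log2 scale in each of pairs 1, 2 and 3. Of 19938 genes with a probeset of their own, 6462 reached the level of 9, and 49 of those met the rule, which is 0.758% of the 6462. Because the rule used positive minus negative itself, the sizes and counts below describe the 49 genes and are not tests of them.

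The 6 arrays came from ES cells labelled wild type (WT) that carried the 2C::tomato reporter and had been passaged on gelatin in ES-KOSR medium. Fluorescence-activated sorting had separated 2C::tomato+ cells (3 arrays, called positive) from 2C::tomato- cells (3 arrays, called negative), and the question was which genes differ between them. The protocol names vehicle or 4OHT treatment to delete Kdm1a, and the labels do not say which of these a wild-type sample received. Kdm1a itself was at 10.98, 11.25 and 10.98 in negative arrays 1, 2 and 3 and at 10.91, 11.02 and 10.92 in the positive ones. The labels do not name separate cultures, so the spread between replicates may be technical.

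ES cells of the mouse are not uniform. A small and changing fraction switches on genes that are otherwise used in the embryo at the two-cell stage, many of them under the control of an endogenous retrovirus, and the promoter of such a retrovirus drives the 2C::tomato reporter in published work. Many two-cell-stage genes are close to silent in the other cells. The genes below differ from those in that negative cells express them well. Since each array measured a whole sorted population, more cells with a transcript and more transcript per cell cannot be told apart.

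ES cell markers were high on all arrays: the mean log2 level of 7 markers, Pou5f1, Sox2 and Nanog among them, lay between 11.86 and 12.18 in negative and between 11.81 and 12.14 in positive arrays. The 6 two-cell markers averaged 5.40 to 5.68 in the negative arrays and 8.28, 11.53 and 7.12 in positive arrays 1, 2 and 3, so positive array 2 stood well above the other two. The 11 fibroblast markers averaged 8.0 to 8.52 in negative and 7.65 to 8.40 in positive arrays, the 7 primitive endoderm markers 7.80 to 8.19 and 7.47 to 7.74, and the 7 trophectoderm markers 8.26 to 8.75 and 8.10 to 8.92. None of these markers was among the 49 genes, and the part of any of these cell types, or of the high two-cell marker level of positive array 2, in the differences below was not tested. Arrays correlated at r = 0.969 to 0.995 across genes. In limma's test of positive against negative over all 19938 genes, the pairs were not used. It gave 0 genes with an adjusted p under 0.05 (0%, smallest adjusted p = 0.910), and 878 had an unadjusted p under 0.05. With replicate number as a block, limma also gave 0 genes (smallest adjusted p = 0.363), and 2394 had an unadjusted p under 0.05.

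The mean differences of the 49 genes ran from 0.33 to 1.16 on the log2 scale, which is 1.26-fold to 2.24-fold, with a median of 0.53 (1.45-fold). Only Dcbld1 was at least 2-fold higher, and 19 genes were at least 1.5-fold higher. Zfp352, a two-cell-stage zinc finger gene shown for comparison, went from 6.0, 5.91 and 5.87 in the negative arrays to 9.06, 11.76 and 8.01 in the positive ones. The 32 measured genes of a two-cell-stage list had a median difference of 1.71, but the 4 of them that were well expressed in negative cells had a median of 0.23, and none of these 4 met the rule. Dppa3, a maternal factor, differed by 1.10, within the range of the 49 genes. The median over all 6462 well-expressed genes was 0.0003, and 16 of these genes (0.248%) were lower by 0.3 or more in all 3 pairs.

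**Figure D1:**
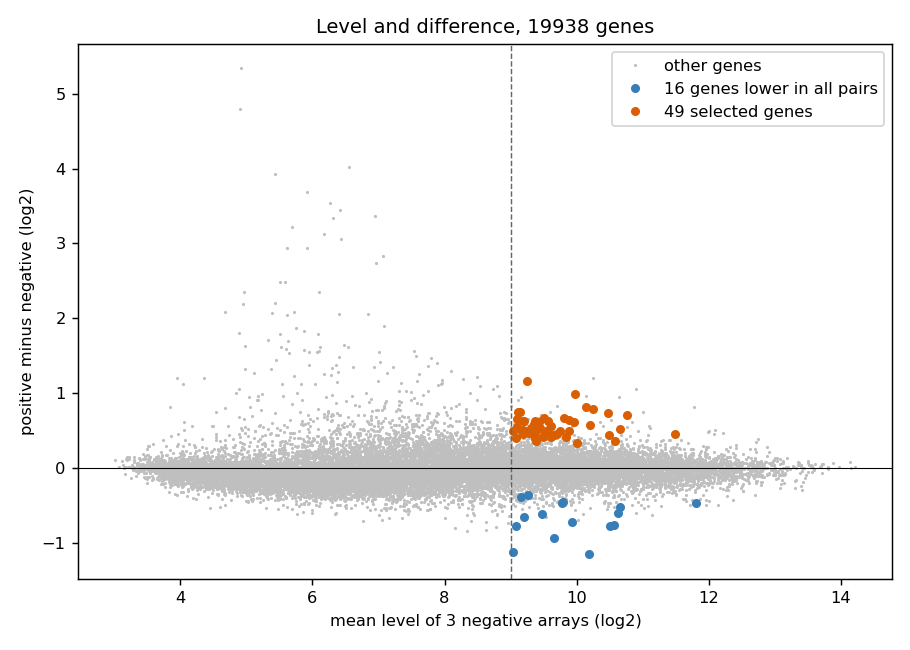
Each point is 1 of 19938 genes, with its mean log2 level in the 3 negative arrays on the horizontal axis and positive minus negative (log2) on the vertical axis. The 49 selected genes (orange) lie to the right of the dashed line at a level of 9 with differences of 0.33 to 1.16, and the differences above 2 belong to genes below a level of 8.

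Most of the 49 genes were near the lower end of the well-expressed range. Their negative mean had a median of 9.5 and a highest value of 11.49 (Id2), against a median of 10.28 over all well-expressed genes. There were 39 genes below a level of 10 (79.6%), compared with 39.7% of the well-expressed genes. RefSeq lists 48 of the 49 as protein coding and Pisd-ps2 as a transcribed pseudogene.

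Promoter sequences of GRCm38.p6 from RefSeq, covering 250 bases before to 50 after a gene's start, were found for 41 of the 49 genes. The start is that of the RefSeq entry, and its use in these cells was not tested. The count of CG dinucleotides separates promoters of broadly active genes, which tend to be rich in CG, from those of restricted genes. Of the 41 promoters, 33 (80.5%) held 10 or more CG, against 91.1% of 5310 well-expressed genes and 43.9% of 27025 genes with a promoter in the table. The median was 20 CG per promoter for the 41 genes, 23 for well-expressed genes and 7 for all genes. The following promoters are shown to give that range, from Wnk3 with 2 CG to Kmt2c with 56, together with those of Mael, Zfp809 and Fundc1, which were among the 8 largest differences. They are written 5′ to 3′ with each CG in capitals.
Mael (chr1:166238695-166238994, minus strand, 24 CG): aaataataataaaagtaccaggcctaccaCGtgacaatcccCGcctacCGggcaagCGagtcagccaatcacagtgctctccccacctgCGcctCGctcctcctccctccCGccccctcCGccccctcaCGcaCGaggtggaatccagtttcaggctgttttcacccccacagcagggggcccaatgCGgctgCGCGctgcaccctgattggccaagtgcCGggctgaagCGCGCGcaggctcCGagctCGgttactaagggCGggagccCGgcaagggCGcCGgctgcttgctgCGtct
Zfp809 (chr9:22225453-22225752, plus strand, 11 CG): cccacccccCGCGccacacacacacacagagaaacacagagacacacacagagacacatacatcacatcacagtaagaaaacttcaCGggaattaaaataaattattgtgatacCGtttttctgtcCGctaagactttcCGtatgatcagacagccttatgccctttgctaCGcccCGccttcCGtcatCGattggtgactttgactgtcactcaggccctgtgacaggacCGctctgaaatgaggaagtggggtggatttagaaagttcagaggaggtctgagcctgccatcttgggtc
Fundc1 (chrX:17571958-17572257, minus strand, 12 CG): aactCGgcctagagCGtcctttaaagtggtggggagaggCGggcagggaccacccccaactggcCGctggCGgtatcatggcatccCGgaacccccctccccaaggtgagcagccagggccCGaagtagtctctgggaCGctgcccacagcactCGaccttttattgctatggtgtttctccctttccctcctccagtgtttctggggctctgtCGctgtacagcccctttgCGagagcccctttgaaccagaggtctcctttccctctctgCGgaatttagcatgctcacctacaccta
Kmt2c (chr5:25498734-25499033, minus strand, 56 CG): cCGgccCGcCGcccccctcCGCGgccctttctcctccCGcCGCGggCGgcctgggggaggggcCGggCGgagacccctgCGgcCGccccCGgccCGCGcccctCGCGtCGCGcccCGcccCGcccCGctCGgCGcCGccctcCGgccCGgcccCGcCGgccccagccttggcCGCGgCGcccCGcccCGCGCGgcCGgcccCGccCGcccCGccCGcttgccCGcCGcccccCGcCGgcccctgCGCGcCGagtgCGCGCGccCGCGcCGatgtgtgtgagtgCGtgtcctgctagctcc
Wnk3 (chrX:151197828-151198127, plus strand, 2 CG): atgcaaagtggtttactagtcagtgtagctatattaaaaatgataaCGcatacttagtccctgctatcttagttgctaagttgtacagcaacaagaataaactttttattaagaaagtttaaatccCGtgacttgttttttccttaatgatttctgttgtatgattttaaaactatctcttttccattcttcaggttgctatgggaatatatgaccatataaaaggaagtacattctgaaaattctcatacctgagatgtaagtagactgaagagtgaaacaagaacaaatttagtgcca

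Short motifs were searched on both strands of the same windows. The GC box GGGCGG was in 30 of the 41 promoters (73.2%), in 70.4% of those of well-expressed genes and in 35.9% of all. The E-box CACGTG was in 4 of 41 (9.76%, against 11.9% and 7.24%), in Mael, Pdpn, Natd1 and Eda2r. GGCGGGA was in 7 of 41 (17.1%, against 24.2% and 11.4%), TATAAA in 5 of 41 (12.2%, against 5.88% and 14.2%) and CCAAT in 20 of 41 (48.8%, against 39.4% and 37.9%). GGGCGG and GGCGGGA can overlap. The Mael promoter held all of these except TATAAA.

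The 3 pairs gave the 49 genes different sizes. Their median differences in pairs 1, 2 and 3 were 0.44, 0.67 and 0.40, while over all well-expressed genes the medians were 0.05, -0.10 and 0.04. Pair 2 was the largest of the 3 for 35 genes, pair 1 for 7 and pair 3 for 7. Over all well-expressed genes the largest was pair 2 in 23.3%, pair 1 in 40.8% and pair 3 in 35.98%. In pair 2, 9.66% of all well-expressed genes were higher by at least 0.3 and 23.8% lower by as much, against 6.52% and 1.55% in pair 1 and 5.56% and 2.23% in pair 3.

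**Figure D2:**
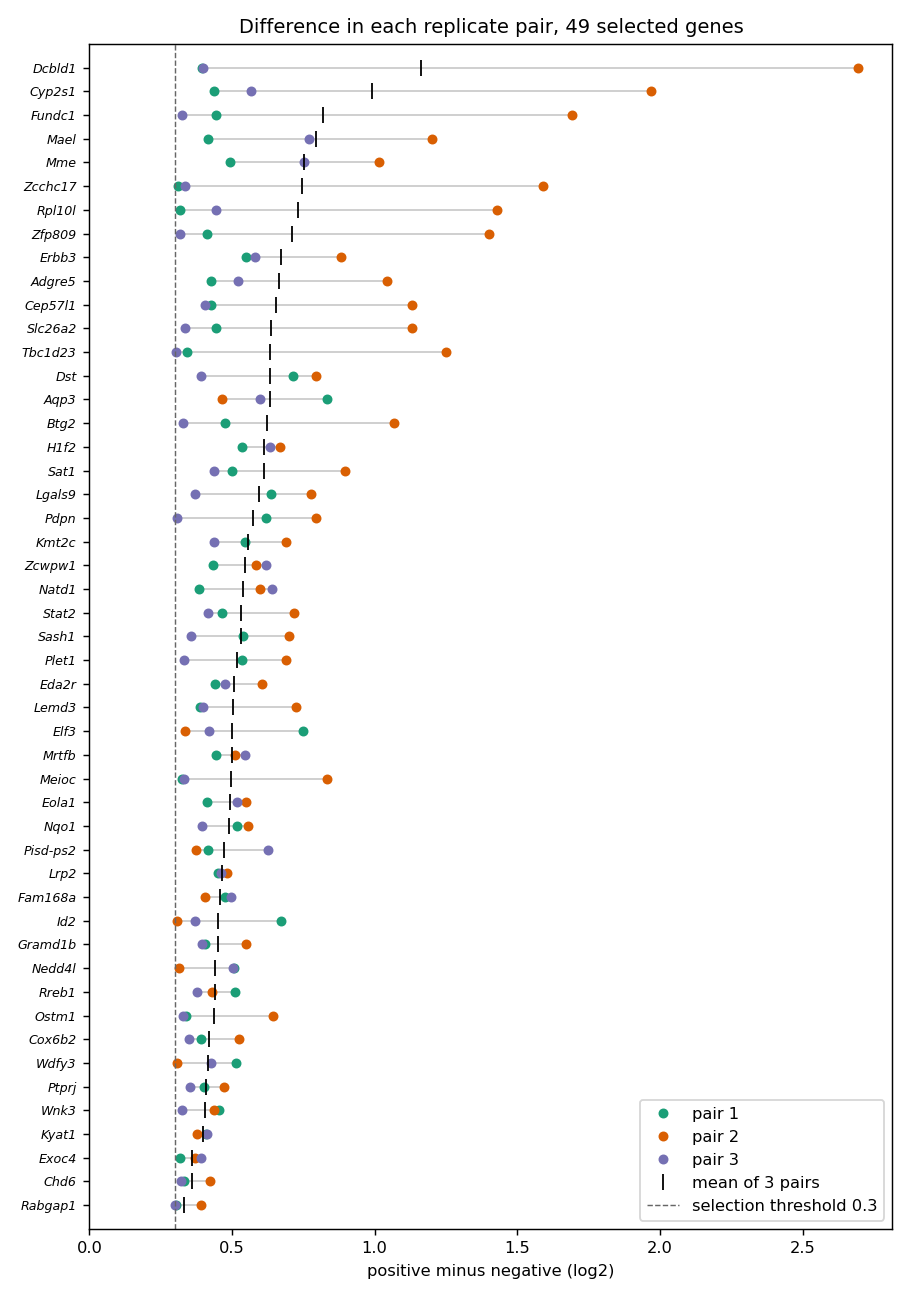
Positive minus negative (log2) in each of the 3 replicate pairs for the 49 selected genes, 1 gene per line, with a black tick at the mean and a dashed line at the selection threshold of 0.3. Pair 2 (orange) lies far to the right for the uppermost genes, up to 2.69 for Dcbld1, whereas the 3 pairs lie close together for many of the lower genes.

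By that measure the genes fell along a range with 2 ends. For 13 genes pair 2 exceeded the mean of pairs 1 and 3 by at least 0.5. These were Dcbld1, Cyp2s1, Fundc1, Mael, Zcchc17, Rpl10l, Zfp809, Adgre5, Cep57l1, Slc26a2, Tbc1d23, Btg2 and Meioc. Their medians were 0.42, 1.25 and 0.33 in pairs 1, 2 and 3, and those of the other 36 genes were 0.47, 0.55 and 0.41. At the other end, the 3 differences of 18 genes lay within 0.2 of each other, and the closest were those of Lrp2 (0.45, 0.48 and 0.46) and Kyat1 (0.41, 0.38 and 0.41).

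Even pairs did not mean even levels. In 22 of the 49 genes the range over the 3 negative arrays was larger than the mean difference, and in 22 genes the positive and negative arrays overlapped. All positive arrays were above all negative arrays for 27 genes. That held for 312 of the 6462 well-expressed genes (4.83%), and nothing is read from the share among the 49 because the rule used the same arrays. Array 2 was the highest of its group in both groups for 27 genes and the lowest in both for 7. The shares over all well-expressed genes are not given here, and nothing is read from these counts. In Lrp2, for example, replicate 2 was the highest array in both groups, and positive arrays 1 and 3 lay below negative array 2.

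**Figure D3:**
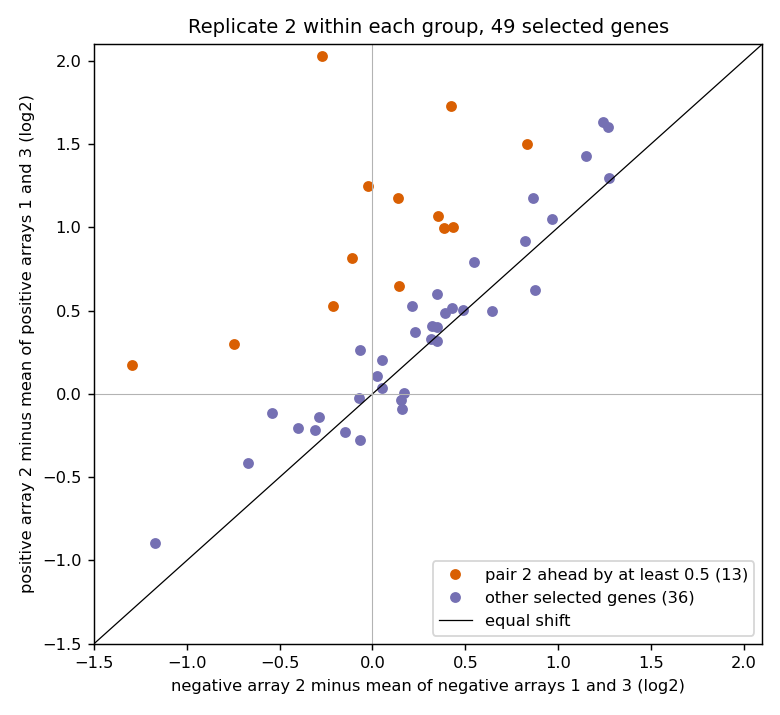
For each of the 49 selected genes, negative array 2 minus the mean of negative arrays 1 and 3 is on the horizontal axis and positive array 2 minus the mean of positive arrays 1 and 3 on the vertical axis, both in log2. Height above the line of equal shift is pair 2 minus the mean of pairs 1 and 3. The 13 genes in orange therefore lie at least 0.5 above the line by definition, and the 36 in purple do not. The purple genes run from below -0.8 to above 1.2 on both axes.

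Each pair is made of arrays that the others do not share, so thresholds set on 2 pairs did not use the pair left out. The probeset of each gene was still chosen on all 6 arrays. The genes chosen without pair 1, pair 2 or pair 3 held 48, 41 and 49 of the 49 selected genes. The shares below therefore largely count the selected genes again and are not a separate test of them. Among the 95 genes that met the level and the difference in pairs 2 and 3, 51 (53.7%) were higher by at least 0.3 in pair 1, compared with 6.82% of all 6557 genes at that level. Among 125 genes chosen on pairs 1 and 2, 51 (40.8%) were that much higher in pair 3, compared with 5.54%. Among 120 genes chosen on pairs 1 and 3, 44 (36.7%) were that much higher in pair 2, compared with 9.67%.

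The left-out pairs also contained the opposite direction. Of the 120 genes chosen on pairs 1 and 3, 23 (19.17%) were lower by at least 0.3 in pair 2, where 23.4% of all genes at that level were, and their median in pair 2 was 0.12. The genes chosen without pair 1 or without pair 3 had medians of 0.32 and 0.26 in the pair left out, and 0 of them were lower there by 0.3. These are shares of genes within 1 pair of arrays and carry no p-value, since genes are not independent replicates.

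**Figure D4:**
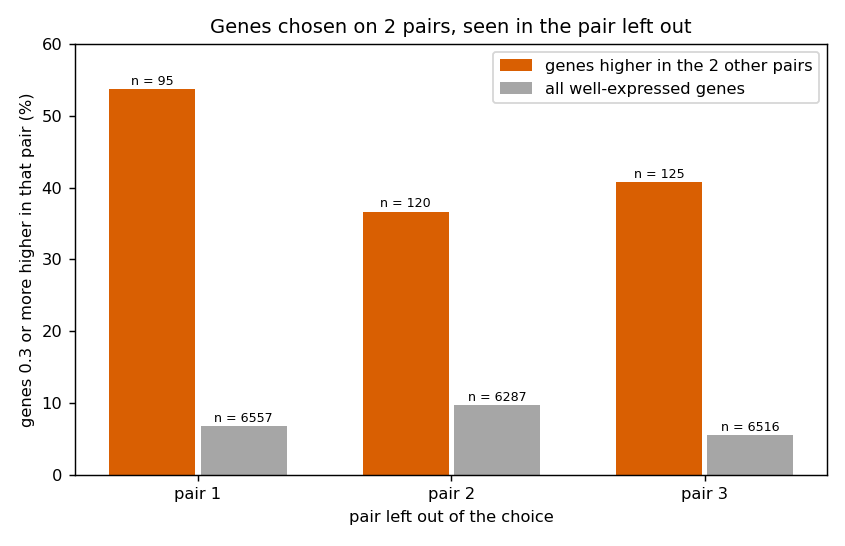
Bars give the percentage of genes that were 0.3 or more higher (log2) in the pair named below them, for genes chosen on the 2 other pairs (orange) and for all genes at a level of at least 9 in the other 2 negative arrays (grey), with the number of genes above each bar. The orange bars stand at 53.7%, 36.7% and 40.8% and the grey bars at 6.82%, 9.67% and 5.54%. The orange bars largely count the selected genes again and are not a separate test of them.

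Among the genes led by pair 2, Dcbld1 had the largest mean difference. It encodes a transmembrane protein with CUB and discoidin domains. Its levels (probeset 10363118) were 9.87, 9.06 and 8.79 in negative arrays 1, 2 and 3 and 10.27, 11.75 and 9.19 in positive arrays 1, 2 and 3. The groups overlapped, and the mean difference of 1.16 ± 1.33 (SD, n = 3 pairs) was mostly that of array 2, since pairs 1 and 3 both stood at 0.40. Without positive array 2 the difference was 0.49.

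Cyp2s1, a cytochrome P450 gene, reached a similar size in another way. Its levels were 10.67, 9.11 and 10.14 in the negative arrays and 11.11, 11.08 and 10.71 in the positive ones, without overlap. The positive arrays lay close together, and the large difference in pair 2 (1.97) came from a low value in negative array 2. The mean difference was 0.99 ± 0.85 (SD, n = 3 pairs) and 0.56 without negative array 2. Rpl10l had the same arrangement, at 10.81, 9.97 and 10.62 in negative and 11.13, 11.40 and 11.06 in positive arrays.

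Fundc1, a receptor on the outer mitochondrial membrane that takes part in mitophagy, was at 10.12, 10.43 and 9.88 in the negative arrays and at 10.57, 12.12 and 10.21 in the positive ones. Positive array 2 stood above all others, positive array 3 lay below negative array 2, and the difference of 0.82 ± 0.76 (SD, n = 3 pairs) fell to 0.24 without positive array 2. Its relative Fundc2 was at 9.99 in negative and 9.97 in positive arrays. Zcchc17, a nucleolar zinc-knuckle protein gene, ranged from 9.01 to 9.24 in negative cells and stood at 9.55, 10.69 and 9.34 in the positive ones. The groups did not overlap, and its 0.75 became 0.33 without positive array 2. Cep57l1, related to the centrosomal gene Cep57, differed by 0.65 (0.30 without positive array 2), and Tbc1d23, whose Golgi protein captures vesicles from endosomes, by 0.63 (0.36).

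**Figure D5:**
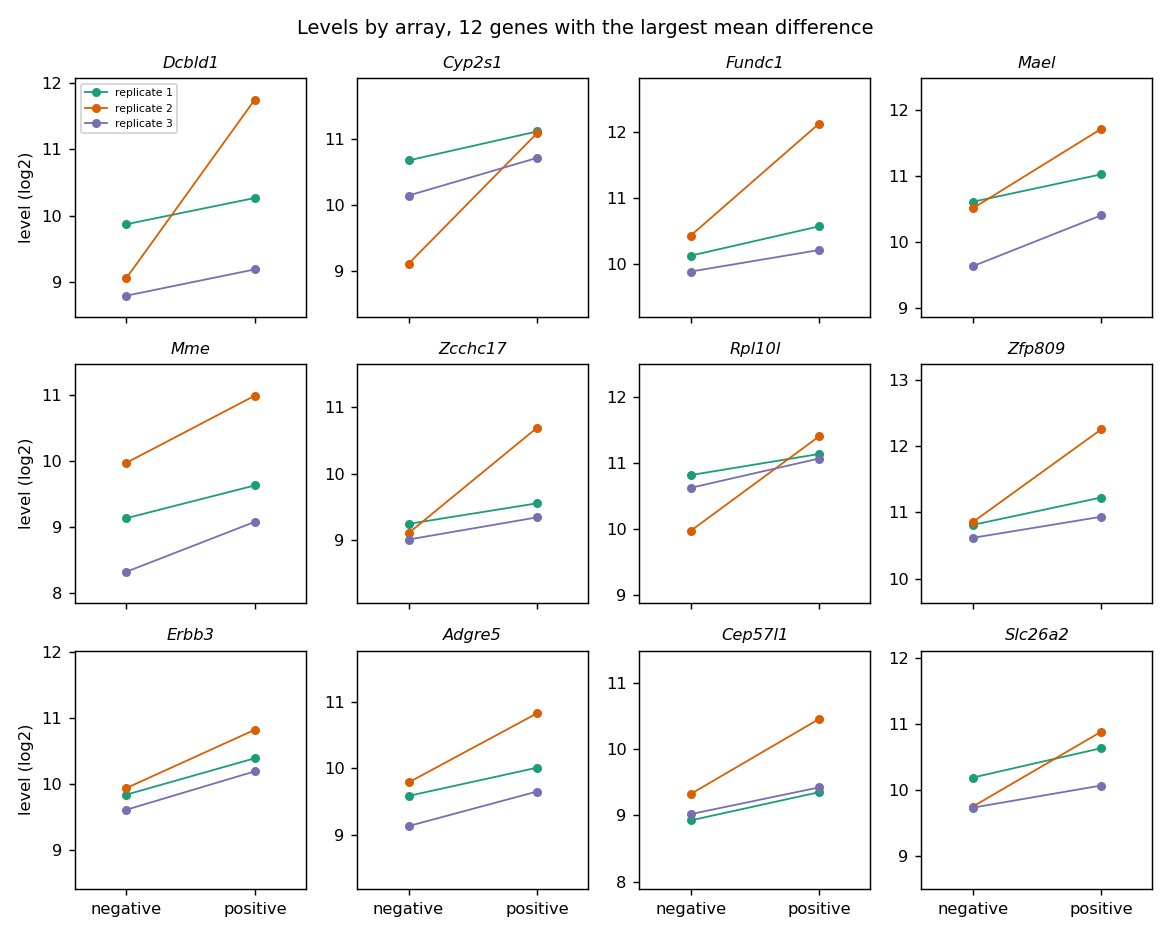
Log2 levels in each array for the 12 selected genes with the largest mean difference, with a line joining the negative and positive array of each replicate, every panel spanning the same number of log2 units. Every line slopes upward, as the selection requires and replicate 2 (orange) is the steepest in all 12 panels.

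Genes with a known part in germ cells formed one group of 5, sorted by role after the members were known. Mael, which takes part in the piRNA pathway that silences transposons in germ cells, was at 10.61, 10.51 and 9.63 in the negative arrays and at 11.02, 11.71 and 10.40 in the positive ones. Every pair was higher, by 0.42, 1.20 and 0.77, but the groups overlapped because replicate 3 was low in both. Zcwpw1, a reader of histone marks at sites of meiotic recombination, was even between pairs, at 0.43, 0.58 and 0.62, and its negative arrays (9.0, 9.33 and 8.96) lay below all positive ones (9.44, 9.91 and 9.58). Meioc, which keeps germ cells in the meiotic programme together with Ythdc2, differed by 0.32, 0.83 and 0.33, while Ythdc2 stood at 8.71 in both groups.

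The other two are germ-cell copies of widely expressed genes. Rpl10l is a retrogene of Rpl10, which encodes a ribosomal protein, and differed by 0.73 ± 0.61 (SD, n = 3 pairs). Rpl10 was at 13.81 in negative and 13.83 in positive arrays, with pairs at 0.04, -0.04 and 0.06. Cox6b2, the testis form of a cytochrome oxidase subunit, had negative arrays at 9.47, 9.65 and 9.72 and positive arrays at 9.86, 10.17 and 10.07, without overlap. Its widely expressed counterpart Cox6b1 differed by 0.11, with pairs at 0.04, -0.01 and 0.30. Copies with similar sequence can bind the same probes, so the levels of Rpl10l and Cox6b2 are uncertain as single genes.

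A list of 42 germ-cell genes gave the surroundings of Mael, Zcwpw1 and Meioc. All 42 were measured, 11 were well expressed in negative cells, and these 3 met the rule. Since the rule chose these 3 for being higher, the list is described by the other 8, of which 7 were higher and 1 lower, with a median of 0.28. Of the 6413 well-expressed genes that were not selected, 3189 were higher, with a median of -0.0013. Hormad1, a protein of meiotic chromosome axes, missed the rule with pairs of 0.28, 0.68 and 0.56, and Stag3, a meiotic cohesin subunit, with pairs of 0.13, 0.71 and 0.50. Syce2, of the synaptonemal complex, differed by -0.26. Among other piRNA pathway genes, Piwil2 differed by 0.18, Tdrd9 by -0.11, Tdrd1 by -0.19 and Asz1 by 0.36, the last 3 at negative levels below 7. Tdrd12 and Ddx4, well expressed and on the germ-cell list, differed by 0.38 and 0.14, with Tdrd12 at -0.07 in pair 2 and Ddx4 at -0.11 in pair 3.

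In the nucleus, 11 genes of transcription, chromatin and RNA had a median difference of 0.53. Zfp809, which encodes a KRAB zinc finger protein that recruits the co-repressor Trim28 to murine leukaemia virus sequences in ES cells, was at 10.81, 10.85 and 10.62 in negative and 11.23, 12.25 and 10.93 in positive arrays. The groups did not overlap, and the difference of 0.71 ± 0.60 (SD, n = 3 pairs) was 0.32 without positive array 2. Trim28 differed by 0.12 and Setdb1, the histone methyltransferase that acts with it, by 0.13. Of 44 well-expressed genes on a list of chromatin silencing genes, Zfp809 alone met the rule, and the median of the other 43 was 0.02. On a list of zinc finger genes, 1 of 122 well-expressed genes met the rule, again Zfp809, against 49 of all 6462 well-expressed genes. Rreb1 and Zcchc17 are not on that list.

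Id2, an inhibitor of helix-loop-helix transcription factors, had the highest level of the 49 genes. Its negative arrays were at 11.52, 11.44 and 11.49 and its positive arrays at 12.19, 11.75 and 11.86, a difference of 0.45 ± 0.19 (SD, n = 3 pairs) without overlap. Here pair 1 was the largest and pair 2 the smallest. Its relatives Id1 and Id3 differed by 0.15 and 0.61, with Id3 at 0.03, 1.20 and 0.62 by pair.

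Rreb1, a zinc finger factor of the Ras pathway, had arrays that lay close together in both groups. Its negative arrays lay at 9.60, 9.70 and 9.69 and its positive arrays at 10.11, 10.13 and 10.07, and the difference of 0.44 ± 0.07 (SD, n = 3 pairs) was larger than the range within the negative (0.095) or the positive arrays (0.059). Mrtfb, a coactivator of serum response factor, differed by 0.50 ± 0.05 (SD, n = 3 pairs), with negative arrays at 9.87, 10.10 and 9.70 and positive arrays at 10.31, 10.61 and 10.24. Its relative Mrtfa differed by 0.03 and Srf, which encodes serum response factor, by -0.07.

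Kmt2c, an enhancer-associated histone H3 methyltransferase, was at 9.55, 9.35 and 9.94 in negative and 10.10, 10.03 and 10.38 in positive arrays, without overlap. Its relative Kmt2d differed by 0.26, with pairs at 0.41, 0.26 and 0.12. Chd6, a chromatin remodeller, was among the smallest differences at 0.36. H1f2, a linker histone, was even between pairs (0.53, 0.67 and 0.63) although array 2 was about 1 log2 unit above arrays 1 and 3 in both groups. Other linker histones differed in both directions, H1f1 by -0.09, H1f5 by -0.16, H1f3 by 0.25 and H1f10 by 0.20, and sequence shared among histone genes makes each of these values uncertain.

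Among response genes, Btg2, an antiproliferative gene whose protein binds the CCR4-NOT deadenylase, differed by 0.48, 1.07 and 0.33 by pair. Its levels overlapped between the groups, and 0.62 became 0.12 without positive array 2. Stat2, which carries type I interferon signals, was at 8.46, 9.87 and 8.98 in negative and 8.92, 10.59 and 9.40 in positive arrays. Both groups had array 2 far above the others, so the groups overlapped and the difference of 0.53 was 0.06 without positive array 2 and 0.92 without negative array 2. Irf9, its partner in the same complex, differed by 0.04, and of the 13 well-expressed interferon and antigen presentation genes besides Stat2, 6 were higher and 7 lower. Elf3, an epithelial ETS factor just inside the level threshold at 9.03, differed by 0.75, 0.33 and 0.42.

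The largest role group was that of cell surface and signalling genes, with 15 members and a median difference of 0.57. Erbb3, a receptor for neuregulins that signals as a partner of Erbb2, was at 9.84, 9.94 and 9.61 in negative and at 10.39, 10.82 and 10.20 in positive arrays. The groups did not overlap, and each pair differed by at least 0.55, the highest smallest-pair value of the 49 genes. Erbb2 differed by 0.05, Egfr by 0.16, Erbb4 by -0.12, and the neuregulin genes Nrg1 and Nrg4 by 0.14 and 0.28.

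Mme, the cell surface peptidase neprilysin, was at 9.13, 9.97 and 8.32 in negative and at 9.63, 10.98 and 9.08 in positive arrays. Each pair differed by 0.49 or more, while the negative arrays alone spanned 1.65. Aqp3, a channel for water and glycerol, had negative arrays at 9.33, 9.31 and 8.97 and positive arrays at 10.16, 9.77 and 9.57, without overlap, and its pair 1 (0.83) was the largest pair 1 value of the 49. Adgre5, an adhesion G protein-coupled receptor, differed by 0.66 and Slc26a2, a sulphate transporter, by 0.64, both with overlap and both largest in pair 2.

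Lrp2, the endocytic receptor megalin, had even pairs although its levels differed widely between replicates. It was at 8.67, 10.13 and 9.05 in negative and 9.12, 10.61 and 9.51 in positive arrays, and its difference of 0.46 ± 0.02 (SD, n = 3 pairs) was 0.03 without positive array 2 and 0.89 without negative array 2. Pdpn, podoplanin, was also highest in array 2 of both groups, at 9.71, 11.04 and 9.84 in negative and 10.33, 11.84 and 10.14 in positive arrays. Its pairs were uneven, at 0.62, 0.79 and 0.31, and its difference of 0.57 was 0.04 without positive array 2. Lrp2 works with cubilin and amnionless in visceral endoderm. Cubn and Amn differed by -0.38 and -0.28, and Dab2, an endocytic adaptor of Lrp2, by -0.44. The 7 primitive endoderm markers as a whole averaged 8.19, 7.80 and 7.98 in the negative arrays and 7.74, 7.74 and 7.47 in the positive ones, and their part in these values was not tested.

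Plet1, a surface protein gene first described in placenta, differed by 0.52 without overlap, with array 2 low in both groups (10.21 in negative and 10.90 in positive). Lgals9, a galectin, had the same arrangement with overlap, at 9.62, 8.57 and 9.86 in negative and 10.25, 9.34 and 10.23 in positive arrays, and its relative Lgals3 differed by 0.47. Eda2r, a receptor of the ectodysplasin family that is a target of p53, was at 9.20, 9.34 and 9.02 in negative and 9.64, 9.94 and 9.5 in positive arrays. Of 20 well-expressed p53 target and apoptosis genes, Eda2r alone met the rule, against 49 of all 6462 well-expressed genes. Of the other 19, 15 were higher and 4 lower with a median of 0.16. Of the 6413 well-expressed genes that were not selected, 3189 were higher and 3224 lower, with a median of -0.0013. A p53 response was not tested. Among the other 19, Sesn2 came nearest to the rule, with pairs at 0.36, 0.69 and 0.25. Sash1, a signalling scaffold, Ptprj, a receptor tyrosine phosphatase, Ostm1, a partner of a lysosomal chloride transporter, and Wnk3, a kinase of ion transport, differed by 0.53, 0.41, 0.44 and 0.40.

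The 8 genes of the cytoskeleton, membranes and trafficking had a median difference of 0.48. Dst, which encodes the cytoskeletal linker dystonin, was at 9.06, 9.93 and 9.72 in negative and 9.77, 10.73 and 10.11 in positive arrays, with overlap. Exoc4, a subunit of the exocyst that tethers secretory vesicles, had pairs at 0.32, 0.37 and 0.39. The 7 other exocyst genes measured, Exoc1 to Exoc8 without Exoc4, differed by -0.07 to 0.18. Wdfy3, an autophagy adaptor, Gramd1b, a carrier of cholesterol between membranes, and Lemd3, an inner nuclear membrane protein that binds SMADs, differed by 0.42, 0.45 and 0.50 without overlap. Rabgap1, which acts on Rab GTPases, had the smallest mean difference, 0.33 ± 0.05 (SD, n = 3 pairs).

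Among 6 genes of enzymes, mitochondria and protein turnover, Sat1 encodes the acetyltransferase that starts the breakdown of spermidine and spermine. It was at 10.41, 9.60 and 9.87 in negative and 10.91, 10.49 and 10.31 in positive arrays, with overlap, and differed by 0.50, 0.90 and 0.44. Odc1, the first enzyme of polyamine synthesis, differed by -0.10 and Srm, spermidine synthase, by -0.01. Smox, spermine oxidase, differed by -0.03 and Sat2 by -0.13. Arg2, an arginase and one of the two-cell markers above, was low in negative cells (5.69) and differed by 3.22, with pairs at 2.30, 5.98 and 1.38. Of the 9 well-expressed genes on the polyamine and arginine list besides Sat1, 3 were higher and 6 lower, with a median of -0.03. Nqo1, a quinone reductase of the oxidative stress response, differed by 0.52, 0.56 and 0.39, and 0.49 became 0.18 without positive array 2. Gclm, Hmox1 and Txnrd1, of the same response, differed by 0.03, 0.23 and -0.04.

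Kyat1, a kynurenine aminotransferase, had groups without overlap and the most even pairs after Lrp2. Nedd4l, a ubiquitin ligase, was at 10.54, 10.59 and 10.34 in negative and 11.04, 10.90 and 10.84 in positive arrays, without overlap. Its relative Nedd4 differed by -0.07. The last 4 genes, given without a role, were Natd1, Eola1, Fam168a and Pisd-ps2, with differences of 0.54, 0.49, 0.46 and 0.47. Pisd-ps2 shares sequence with Pisd, which was at 11.01, 10.92 and 10.79 in negative and 11.01, 10.26 and 10.97 in positive arrays, so it is uncertain as a single gene.

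Other probesets of the same genes gave a reading with different probes on the same arrays. Of the 49 genes, 6 had 7 further probesets, and 6 of the 7 were higher in positive arrays. For Chd6 the second probeset differed by 0.37, with pairs at 0.44, 0.36 and 0.31, beside 0.36 for the first. For Ptprj the values were 0.33 and 0.41 and for Eola1 0.33 and 0.49. In pair 3 the second probesets of Ptprj and Eola1 differed by only 0.21 and 0.17. Mrtfb had further probesets at 0.23 and 0.16 beside its 0.50, both with pair 3 at 0.08. Wdfy3 had one at 0.26 whose pair 2 was -0.06. The second probeset of Sash1 differed by -0.01 at a level of 6.28.

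The weight of single arrays was large for many of the 49 genes. Leaving out 1 array moved the difference by more than 1.5 times in 29 of them, and in 25 it fell by that much without positive array 2. Besides the genes given above with such values, the differences without positive array 2 were 0.21 for Mme, 0.33 for Adgre5, 0.46 for Mael, 0.28 for Meioc, 0.26 for H1f2, 0.29 for Elf3 and 0.37 for Dst. They were 0.05 for Ostm1, 0.33 for Sash1, 0.32 for Eola1, 0.31 for Pisd-ps2, 0.20 for Chd6, 0.19 for Exoc4 and 0.20 for Rabgap1.

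Negative array 2 weighed the other way in some genes. Without it the difference was 0.48 for Rpl10l, 0.30 for Plet1 and 0.20 for Lgals9, and it was 1.17 for Mme, 1.00 for Pdpn, 0.93 for H1f2, 0.79 for Elf3, 0.76 for Nqo1 and 0.73 for Ostm1. Dcbld1 stood at 1.77 without positive array 3 and Lgals9 at 0.89 without positive array 2. Slc26a2 stood at 0.39 without both arrays of replicate 2. No gene of the 49 changed sign when 1 array was left out. Among the genes that moved less than 1.5 times were Rreb1, Natd1, Fam168a, Nedd4l, Cox6b2 and Id2.

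The 49 genes were scattered in RefSeq gene order, and no 2 of them were neighbours among the measured genes. Of their 97 measured neighbours, 48 were higher in positive arrays, with a median of -0.0035. A single neighbour, Gpr21 beside Rabgap1, was higher by 0.3 or more in all pairs (1.03% of neighbours, against 1.38% of all genes). Its level was 5.57 in negative and 6.14 in positive arrays.

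Of the 31 gene lists, 11 held at least 1 of the 49 genes, and 11 of the 49 genes were on a list. Of all 6462 well-expressed genes 0.758% met the rule, so lists of the sizes below can lack a member at that share. The share of all well-expressed genes on a list is not given here, and nothing is read from these counts. Lists without a member included 52 well-expressed ribosomal protein genes with a median of 0.03, 56 splicing and RNA-binding factors with -0.01, 46 mitosis and spindle genes with 0.12 and 34 naive and core pluripotency genes with -0.06. The immediate-early and growth-response list held 2 members, Btg2 and Id2, beside 2 genes that were lower in every pair by at least 0.3, and 17 of its 25 well-expressed genes were lower.

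The thresholds passed through a continuous range of values. The smallest pair was 0.3003 for Rabgap1 and 0.305 for Tbc1d23, just inside, and 0.297 for Clu, M1ap and Map1b, just outside. At the level threshold, Elf3 (9.03), Kyat1 (9.08) and Cep57l1 (9.09) were just inside and Hpca (8.98), Sntb1 (8.98) and Depdc1a (8.96) just outside. A mean difference of at least 0.3 was reached by 257 well-expressed genes, and 208 of them were not selected because at least 1 pair was below 0.3. Without the level threshold, 275 genes met the pair rule, so 226 of them lay below a level of 9. Dppa3 met neither the level (8.54) nor the pair rule (0.80, 2.32 and 0.17).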

How the data were processed

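Sorted 2C::tomato+ and 2C::tomato- ES cells were measured on Affymetrix whole-transcript arrays from 100 ng of RNA, 3 arrays a group. The deposited values are log2 signals made by the authors with RMA in Affymetrix Expression Console, per the submitters' processing notes. The sources used here do not give software versions or the genome build. The number of arrays limits the precision.

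Of 35556 probesets, 21789 had 1 symbol in the platform annotation, 1621 had several and 12146 none. For each gene the single-symbol probeset with the highest mean over the 6 arrays was used, giving 19938 genes. The 49 genes met the level and pair thresholds stated in the report. Replicate numbers in the labels made the pairs: deviations from the group means of same-numbered arrays correlated at 0.55, 0.55 and 0.46, and other pairings at 0.20 or less. Positive against negative was tested over all genes by a linear model with moderated variance and no block (limma 3.58.1, R 4.3.3) and Benjamini-Hochberg adjustment, checked on simulated data. Tables and figures were made with Python 3.11.15 and pandas 2.3.3.

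The members and the gene lists were chosen with earlier results of these data known. The roles, the related genes, the promoters shown, the counts for a left-out pair and the limits of 0.5 for genes led by pair 2 and 0.2 for even pairs were chosen after values were seen. The rule for named genes took, among the 49, the 12 largest mean differences, the 8 largest smallest-pair differences, the 8 highest levels, the 8 smallest pair ranges, up to 4 per list, genes at either threshold and genes with a second probeset. That gave 39 of the 49 by name, and the other 10 were named to account for all of them. RefSeq's GRCm38.p6 tables gave gene types, gene order and promoters (the first entry of each gene), matched by symbol or gene ID. Alternatives were leaving out arrays or pairs, the replicate block, other thresholds, other probeset choices and other normalizations.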

Additional observations from a re-analysis of the deposited data

Results flagged for a closer look

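Some probesets that the comparisons above did not use also met the rule, which 0.758% of the 6462 well-expressed genes met. Of 1842 well-expressed probesets with no listed symbol, 14 (0.760%) met the same level and pair thresholds, with differences of 0.40 to 0.87 and a median of 0.57. Of 638 well-expressed probesets with several symbols, 26 (4.08%) met them, with differences of 0.49 to 3.58 and a median of 0.70. These probesets are not named to single genes here. With 3 arrays a group, single arrays were not tested as outliers.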

How the results depend on the processing

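The number of selected genes followed the thresholds. It was 104 at a level of at least 8, 10 at a level of at least 10 and 275 with no level, and 137, 17 and 2 with 0.2, 0.4 and 0.5 in each pair. Using only 2 of the 3 pairs gave 95 to 125 genes. A mean difference of 0.3 without overlap, with no replicate block, gave 102 genes, 27 of them among the 49, and a second quantile normalization gave 31, 28 of them shared. The mean over probesets, the lowest-ID probeset and median centring gave 45, 46 and 44 genes. The median difference of 0.53 was 0.37 without positive array 2 and lay between 0.37 and 0.62 over all settings that left out arrays. Over 468 comparisons of the 39 genes named by rule, 0 changed sign and 72 counted as moved. Moved means by at least the SD of the gene's 3 pair differences, which was 0.02 for Lrp2 and 1.33 for Dcbld1. That SD is not the spread between arrays. The replicate block and the settings that left out a whole pair could, by construction, neither change sign nor count as moved. In limma, 0 genes had an adjusted p under 0.05 under every setting run. With the replicate block the count was 0 (smallest adjusted p = 0.363, 2394 genes at an unadjusted p under 0.05), and with array weights the smallest adjusted p was 0.0673 (4851 genes). The block left each gene's difference as it was, since every pair is complete.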
